A study of Homo sapiens with 40 samples.

Results

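PC9 is a human lung adenocarcinoma line that carries an activating deletion in the epidermal growth factor receptor gene EGFR. The results below describe PC9 cells given GSK3368712 against PC9 cells given the vehicle dimethyl sulfoxide (DMSO), and they use every gene that the authors' deposited table lists with values for the PC9 comparison. These were 12721 of the 19280 genes with values in at least 1 of the 10 lines of the series, and of 58336 genes in the table per line. The series holds 40 RNA sequencing libraries from 10 non-small cell lung cancer lines, with 2 libraries per line for DMSO and 2 for GSK3368712, so the PC9 comparison rests on 4 libraries. No engineered allele or further agent is named in the labels. Its replicates are numbered N1 and N2 with no word on separate cultures, and the p-values may therefore measure technical spread alone. The sample titles carry the tag D5, whose meaning is not spelled out.

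GSK3368712 is an inhibitor of the type I protein arginine methyltransferases, the enzymes that place a pair of methyl groups on the same nitrogen of an arginine side chain (asymmetric dimethylarginine). PRMT1 does most of this work in human cells, and its substrates include histones and RNA-binding proteins rich in arginine-glycine repeats, so the family is known for roles in transcription, splicing and the handling of nuclear RNA. Genes of the type I interferon response encode antiviral proteins, and many carry in their promoters the interferon-stimulated response element, a site for the STAT and IRF transcription factors.

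The 13 interferon-response genes that rose in PC9, described further on, include 4 whose promoters are shown here because they led the genes with an entry in the promoter table; these are the 250 bases before the transcription start, from RefSeq on GRCh38.p14, 5′ to 3′ on the strand of the gene. Capitals mark matches on either strand to GAAA, any 2 bases and GAAA again, the core of the interferon-stimulated response element. IFI27 lies at chr14:94110486-94110735 on the plus strand, IFI44 at chr1:78649539-78649788 on the plus strand, DDX60 at chr4:168318753-168319002 on the minus strand and HERC6 at chr4:88378602-88378851 on the plus strand.
IFI27: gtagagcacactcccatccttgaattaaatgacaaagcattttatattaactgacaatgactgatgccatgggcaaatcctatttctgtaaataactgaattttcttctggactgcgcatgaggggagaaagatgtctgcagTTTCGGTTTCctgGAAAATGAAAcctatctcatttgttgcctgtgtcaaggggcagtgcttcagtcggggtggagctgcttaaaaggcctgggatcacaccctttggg
IFI44: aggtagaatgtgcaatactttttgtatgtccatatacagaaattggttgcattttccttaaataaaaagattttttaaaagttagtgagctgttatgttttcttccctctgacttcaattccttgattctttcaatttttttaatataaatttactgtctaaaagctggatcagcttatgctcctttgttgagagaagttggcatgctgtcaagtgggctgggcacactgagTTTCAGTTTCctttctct
DDX60: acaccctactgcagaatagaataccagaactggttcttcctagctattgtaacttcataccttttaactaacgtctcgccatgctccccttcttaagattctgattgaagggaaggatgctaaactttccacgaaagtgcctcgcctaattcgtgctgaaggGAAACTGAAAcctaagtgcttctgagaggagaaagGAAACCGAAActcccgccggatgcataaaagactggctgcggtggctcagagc
HERC6: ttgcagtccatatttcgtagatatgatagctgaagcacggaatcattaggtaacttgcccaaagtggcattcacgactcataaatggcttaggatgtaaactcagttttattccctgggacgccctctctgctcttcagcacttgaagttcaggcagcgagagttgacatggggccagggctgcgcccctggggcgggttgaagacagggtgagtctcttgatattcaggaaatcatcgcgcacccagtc

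IFI27 and DDX60 each held 2 matches in this stretch and IFI44 held 1. HERC6 held 0 matches, which says only that these letters are not in this window. The wider counts over promoters follow beside the interferon results. The 2 promoters below belong to ALPP at chr2:232378501-232378750 and ALPG at chr2:232406594-232406843, both on the plus strand, the neighbouring genes of placental and germ cell alkaline phosphatase, and are shown because both genes were called higher in PC9 and the sequences are near copies.
ALPP: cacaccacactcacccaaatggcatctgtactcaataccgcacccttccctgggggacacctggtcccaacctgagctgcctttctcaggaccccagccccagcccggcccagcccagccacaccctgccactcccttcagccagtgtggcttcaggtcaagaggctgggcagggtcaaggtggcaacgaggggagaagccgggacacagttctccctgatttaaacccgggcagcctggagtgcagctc
ALPG: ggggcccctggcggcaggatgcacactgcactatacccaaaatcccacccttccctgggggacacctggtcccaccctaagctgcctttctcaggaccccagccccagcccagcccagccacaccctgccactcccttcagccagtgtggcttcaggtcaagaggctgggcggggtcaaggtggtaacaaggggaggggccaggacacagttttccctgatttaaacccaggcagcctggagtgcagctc

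Aligned over their 250 bases, the ALPP and ALPG stretches shared 216 identical bases, with 28 mismatches and 12 gap bases. No capitals are used in them because neither held the interferon motif.

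Markers of the labelled cell type were checked before the comparison. Of 11 lung adenocarcinoma markers, 8 were listed for PC9 in the authors' deposited table (FOXA1, KRT7, KRT8, KRT18, KRT19, EPCAM, CDH1 and MUC1), while NKX2-1, NAPSA and FOXA2, which mark the terminal respiratory unit and glandular lineage, were not. The squamous markers TP63, KRT5 and KRT6A were listed as well, and SOX2, KRT14 and DSG3 were not. The listed markers of the label are thus general epithelial keratins, junction genes and FOXA1, without the lung lineage factor NKX2-1. Of 12 immune markers the table listed CD4 and CD68, of 10 fibroblast markers COL1A1 and ACTA2, and of 8 endothelial markers CDH5 and ESAM; PTPRC, PDGFRB and PECAM1, the defining genes of those cells, were not listed. ACTA2 fell by 1.24 ± 0.36 in the authors' deposited table and the other 5 of these immune, fibroblast and endothelial markers were not called. Per the labels, each comparison dropped genes at or under 1 FPKM (fragments per kilobase of transcript, scaled to library depth), so a gene without values is only not listed, and a gene that passed through the arm where it was high had to differ.

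The PC9 comparison had a spread that limited what could be called. The authors' deposited table gave the 12721 genes a median standard error of 0.302 on the log2 scale, against 0.108 to 0.342 for the median of each line in the series. Its sum of mean normalized counts was 100036512, and the median gene had a mean normalized count of 1909. A gene was called here when the DESeq2 adjusted p of the authors' deposited table was under 0.05. That took 326 genes higher (2.56%) and 243 lower (1.91%) with GSK3368712, 4.47% together. At an unadjusted p under 0.05 there were 2365 of the 12721 genes, and list counts at that threshold below are to be read beside this share. Without the 25% of genes with the lowest level the counts were 153 higher and 124 lower. The other lines ran from 1.66% of genes called in NCIH522 to 48.1% in NCIH1563. The smallest absolute log2 fold change called in PC9 was 0.81, so smaller changes were not detectable at this spread, and the median of the called ones was 1.29. In bulk RNA, less RNA per cell and fewer cells with a transcript cannot be told apart.

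Transcript length moved with the direction of change. In the authors' deposited table, PC9 genes in the third with the shortest transcripts, ranked by the longest annotated transcript, had a median log2 fold change of −0.14, with 2.45% called higher and 2.78% lower. The third with the longest transcripts had a median of 0.15, with 2.93% called higher and 1.16% lower. The share of called genes whose exons overlap another gene on the same strand was 20.6%, against 18.6% of all PC9 genes. The part of length in the gene groups below was not tested.

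**Figure D1:**
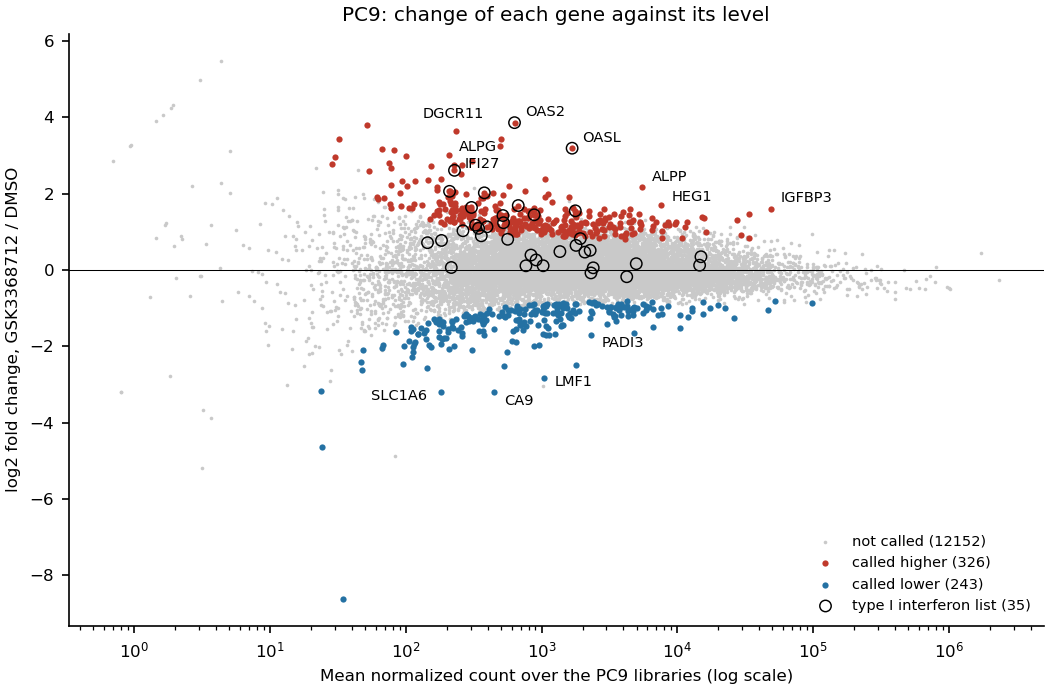
Each point is 1 of the 12721 genes of the PC9 comparison, with its mean normalized count over the PC9 libraries on a log axis and its log2 fold change (GSK3368712 over DMSO) on the vertical axis; red and blue points are genes called higher (326) and lower (243), and rings mark the 35 measured interferon-response genes. The called interferon genes sit at mean normalized counts of 210 to 1769, with OAS2 and OASL uppermost.

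The genes above the median level that rose most were led by ALPP, HEG1 and IGFBP3. The authors' deposited table gave ALPP, placental alkaline phosphatase, a log2 fold change of 2.18 ± 0.29 (SE; 4.52-fold higher) with a DESeq2 adjusted p of 7.07e-11. In the same authors' deposited table its neighbour ALPG stood at 3.02 ± 0.42 with a mean normalized count of 206, and reads of such near-identical copies may have been divided between them by the counting. HEG1, a transmembrane protein of cell junctions, stood at 1.70 ± 0.37 in the authors' deposited table. IGFBP3, a carrier of insulin-like growth factors, rose by 1.61 ± 0.29 from a high level, with a mean normalized count of 48429 in the authors' deposited table. ZBED2, a zinc finger transcription factor, also stood at 1.61 ± 0.29 there, and the complement protease C1S at 1.6 ± 0.31 in the authors' deposited table. Exons of C1S overlap those of EMG1, which the authors' deposited table put at −0.09 ± 0.28 and did not call.

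Further genes of this group have roles in calcium binding, vesicles and transcription. The authors' deposited table put EFHD1, a mitochondrial calcium-binding protein, at 1.55 ± 0.28. EFHD1 lies at chr2:232606057-232682781, downstream of ALPP at chr2:232378534-232382889, both by GENCODE. This GENCODE start of ALPP falls within the RefSeq promoter stretch shown above, so GENCODE and RefSeq place the start differently. GPNMB, a glycoprotein of melanosomes and lysosomes, stood at 1.46 ± 0.33 in the authors' deposited table. HPS5, a subunit of a complex that builds lysosome-related organelles, rose by 1.46 ± 0.37 in the authors' deposited table. PPARA, the nuclear receptor that drives fatty acid oxidation, rose by 1.42 ± 0.31 there, and the mitochondrial protein FAM210B by 1.40 ± 0.38 in the authors' deposited table. The scaffold for protein kinase A AKAP13 stood at 1.44 ± 0.46, with an adjusted p of 0.0409 in the authors' deposited table, and lost the call, at 0.0543, when the 25% of genes with the lowest level were left out. NEAT1, the RNA scaffold of paraspeckles, stood at 1.46 ± 0.45 in the authors' deposited table.

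For some of the named genes the counting is uncertain because exons are shared. NUDT3, a diphosphoinositol hydrolase, stood at 1.52 ± 0.45 in the authors' deposited table, while the readthrough RPS10-NUDT3 that shares its exons stood at −0.33 ± 0.32. The readthrough ATP6V1G2-DDX39B stood at 1.42 ± 0.33 in the authors' deposited table, while DDX39B, an RNA helicase that shares its exons and had a mean normalized count of 42243, stood at 0.28 ± 0.28. SYCE1L and LINC01389, described next, share exonic bases with MON1B and CMPK1, which the authors' deposited table put at −0.25 and −0.48 without a call.

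Genes above the median level that fell most were led by enzymes. PADI3, a deiminase that turns arginine into citrulline, fell by 1.70 ± 0.29 in the authors' deposited table, with an adjusted p of 1.86e-06. The other deiminases were not called: PADI4 stood at −0.77, PADI2 at −0.24 and PADI1 at 0.18 in the authors' deposited table. ATL3, an atlastin that fuses tubules of the endoplasmic reticulum, fell by 1.65 ± 0.26, and its relative ATL2 stood at −0.11 without a call in the authors' deposited table. TST, the mitochondrial sulfurtransferase rhodanese, fell by 1.52 ± 0.29 from a mean normalized count of 10467 in the authors' deposited table. IGFBP2, another carrier of insulin-like growth factors, fell by 1.49 ± 0.28 while IGFBP3 rose, in the authors' deposited table.

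The rest of the leading genes that fell cover metabolism, adhesion and DNA repair. The authors' deposited table put the haem-binding protein CYB5D2 at −1.42 ± 0.26 and SRPX2, a secreted sushi-repeat protein, at −1.34 ± 0.27. CEACAM6, a carcinoembryonic antigen family adhesion protein, fell by 1.25 ± 0.32 from a mean normalized count of 25987 in the authors' deposited table. ACSS2, which makes acetyl-CoA from acetate, fell by 1.23 ± 0.29, and the lysophosphatidic acid phosphatase ACP6 by 1.21 ± 0.28 in the authors' deposited table. DDB2, a recognition factor of ultraviolet damage and a p53 target, fell by 1.21 ± 0.28 in the authors' deposited table. The adenylyl cyclase ADCY3 fell by 1.19 ± 0.28, the linker histone gene H1FX by 1.18 ± 0.31 and the lysosomal sulfatase GALNS by 1.18 ± 0.28 in the authors' deposited table. CCDC92 and WDR54, a coiled-coil and a WD-repeat protein, stood at −1.26 and −1.24 there, both called in the authors' deposited table.

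**Figure D2:**
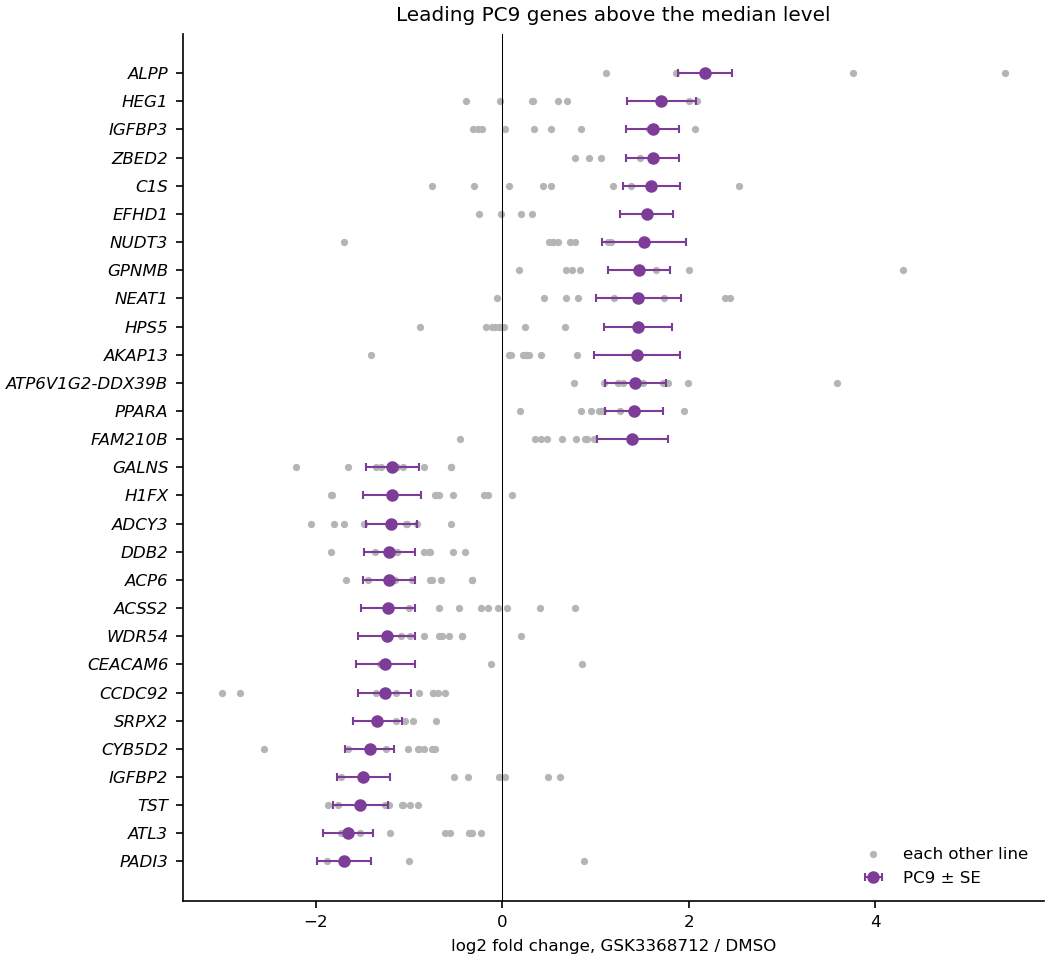
Genes with the largest increases and decreases among called PC9 genes above the median level (15 in each direction, less any not reported here), with the PC9 log2 fold change and its standard error (purple) and the log2 fold change of each other line that lists the gene (grey). ALPP is positive in all 4 other lines that list it, TST, CYB5D2 and ATL3 are negative in all 9, and HPS5 is near 0 or below in most other lines.

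At or below the median level the largest called changes were wider. The median standard error was 0.342 there and 0.28 above the median level. A call at a larger error needs a larger change, so the wider changes are not read as a result. The authors' deposited table put OAS2, a sensor of double-stranded RNA that makes short oligoadenylates, at 3.86 ± 0.35 (14.5-fold higher), with an adjusted p of 4.21e-24. The metabotropic GABA receptor subunit GABBR2 stood at 3.44 ± 0.47, and no other line lists it in the authors' deposited table. SYCE1L, a relative of a synaptonemal complex protein, stood at 3.45 ± 0.84 from a mean normalized count of 32.1 in the authors' deposited table. In the other direction, CA9, the cell-surface carbonic anhydrase induced by hypoxia, fell by 3.20 ± 0.37, and SLC1A6, a glutamate transporter, by 3.19 ± 0.42 in the authors' deposited table. LMF1, a factor for the maturation of lipases, fell by 2.82 ± 0.32 in the authors' deposited table. The long non-coding RNA LINC01389 stood at −4.64 ± 1.11 at a mean normalized count of 24.1, and MEIG1, a gene of male germ cells, at −2.63 ± 0.75 in the authors' deposited table.

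Several transcripts inside introns rose while the genes that contain them were not called or fell. Of 33 transcripts annotated as sense intronic, lying within an intron on the strand of the host gene, 7 (21.2%) were called higher and 0 lower by DESeq2 in the authors' deposited table, with a median log2 fold change of 1.00 against 0.005 for all PC9 genes. Protein-coding genes were called in 3.8% of 11340 cases, long intergenic RNAs in 14.3% of 335, antisense RNAs in 10.2% of 352 and transcripts annotated as to be experimentally tested in 16.0% of 25. The 6 genes without a match in the annotation had 33.3% called. The differences between these classes were not tested. A low-level transcript that passed the filter of 1 FPKM only through the treated arm had to be positive. The counts and the median of the sense intronic class may therefore be partly fixed by the filter. How many of its transcripts passed in this way was not analysed. DGCR11 rose by 3.66 ± 0.44 in the authors' deposited table, while DGCR2, which contains it, stood at 0.15 ± 0.26. GABPB1-IT1 rose by 1.42 ± 0.32 and its host GABPB1 stood at 0.18 ± 0.32 in the authors' deposited table. AC009041.4, at chr16:968375-969012 inside LMF1, rose by 3.79 ± 0.72 in the authors' deposited table, whereas LMF1 fell. AC037198.1 inside THBS1 rose by 2.96 ± 0.85, and THBS1 itself, the adhesive matrix protein thrombospondin, rose by 1.32 ± 0.36 in the authors' deposited table. Of 23 host genes with values, the authors' deposited table called 1 higher (THBS1) and 2 lower (LMF1 and MOCOS). The intronic transcripts had low counts, a median of 110, and the strand setting of the counting is not given in the sources used here.

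Many genes of the type I interferon response rose in PC9. Of 41 genes on this list, 35 had values, and the authors' deposited table called 13 higher and 0 lower by DESeq2, beside 2.56% higher and 1.91% lower of all PC9 genes. With an unadjusted p under 0.05 there were 19, all positive, beside 2365 of all 12721 PC9 genes. The median log2 fold change of the 35 genes was 0.81 in the authors' deposited table, against 0.005 over all PC9 genes, and 33 of 35 were positive. The list was chosen with earlier results of these data known and carries no test of its own. A low-level gene that passed the filter of 1 FPKM only through the treated arm had to be positive. The counts of positive and called members may therefore be partly fixed by the filter, and how many genes passed in this way was not analysed. IFIH1, RSAD2, CMPK2, IFI44L, IFIT5 and SAMD9L had no values in PC9.

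The antiviral effectors led. OASL, a catalytically inactive relative of OAS2, rose by 3.19 ± 0.33 (9.14-fold higher) with an adjusted p of 1.10e-18 in the authors' deposited table. IFI27, a small protein induced by interferon alpha, rose by 2.61 ± 0.39 in the authors' deposited table. IFI44 rose by 2.06 ± 0.40 and DDX60, a helicase that aids viral RNA sensing, by 2.02 ± 0.33 in the authors' deposited table. The GTPases that block viral replication, MX1 and MX2, stood at 1.55 ± 0.29 and 1.43 ± 0.42, both called in the authors' deposited table. Of the family that binds foreign RNA ends, IFIT1 rose by 1.64 ± 0.42 and IFIT3 by 1.18 ± 0.37 in the authors' deposited table, while IFIT2 stood at 1.03 with an adjusted p of 0.0724. HERC6 and HERC5, ligases of ubiquitin and of the modifier ISG15, stood at 1.69 and 1.09 and were called in the authors' deposited table. IFI6 rose by 1.45 ± 0.31 and the tether of budding virus BST2 by 1.13 ± 0.33 in the authors' deposited table.

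Other members of the same response stayed without a call. OAS1 stood at 0.47 ± 0.28 and OAS3 at 0.17 ± 0.27 in the authors' deposited table, beside the called OAS2 and OASL. ISG15, the ubiquitin-like modifier, stood at 0.52 with an adjusted p of 0.363, and the RNA sensor DDX58 (RIG-I) at 0.90 with an adjusted p of 0.13 in the authors' deposited table. Transcription factors of the pathway were not called in the authors' deposited table: STAT2 −0.18 ± 0.27, IRF7 0.11 ± 0.29 and IRF9 0.65 ± 0.28. Of 20 interferons, receptors and signalling genes with values, the authors' deposited table called 0 by DESeq2, with 2 at an unadjusted p under 0.05 (JAK1 and IRF9), and no interferon gene of that list had values. The 13 called members were all at or below the median PC9 level of 1909, and 8 of them were in the lowest 25% by level in the authors' deposited table. Leaving that 25% out left 20 members, of which 5 were called, with a median of 0.43.

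**Figure D3:**
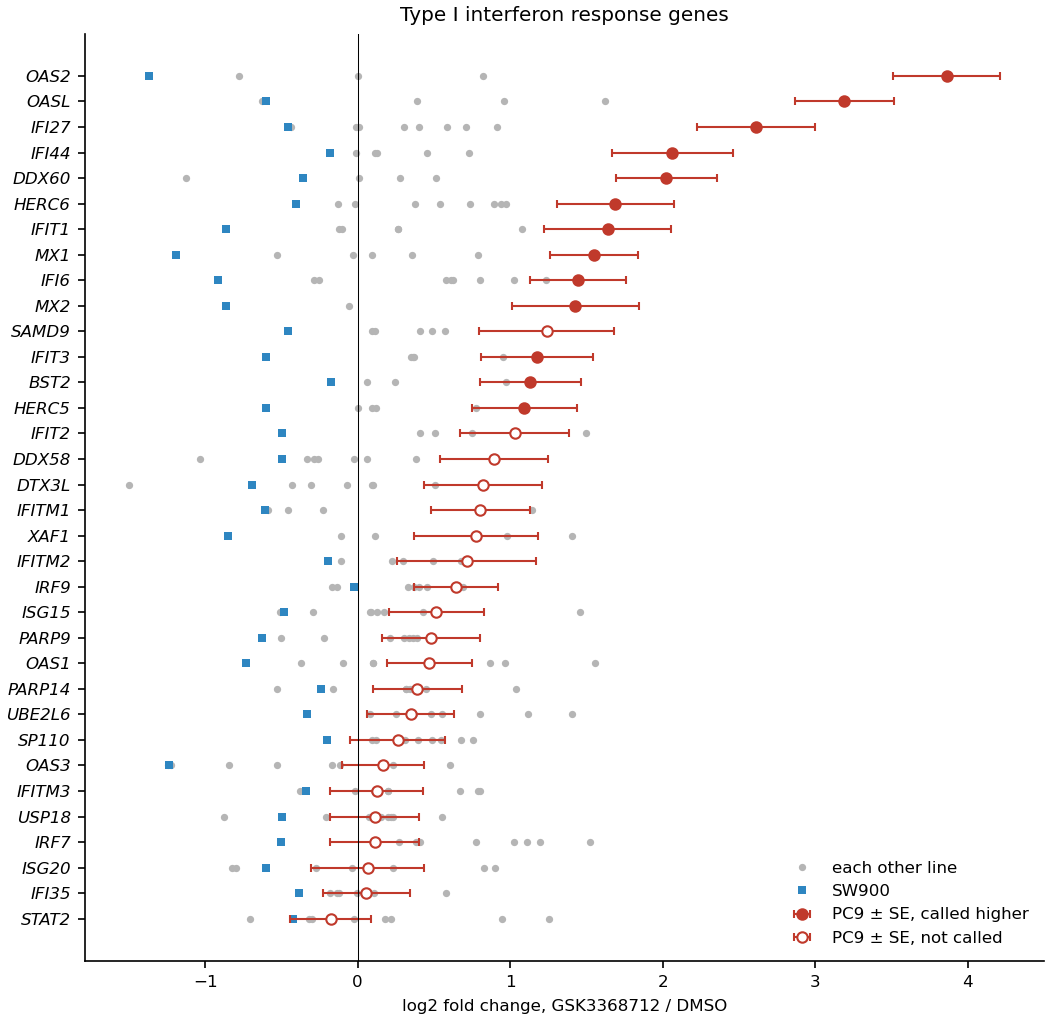
Measured interferon-response genes, less any not reported here, with the PC9 log2 fold change and standard error (filled, called higher; open, not called), the same value in SW900 (blue squares) and in each other line that lists the gene (grey). The 13 called PC9 genes run from 1.09 (HERC5) to 3.86 (OAS2), and SW900 lies below PC9 for every gene drawn.

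Classical antigen presentation gave few changes. Of 21 genes of MHC class I presentation, 0 were called by DESeq2 in the authors' deposited table, with a median log2 fold change of 0.04. At an unadjusted p under 0.05 there were 2 (ERAP2 and CANX), beside 2365 of all 12721 PC9 genes. B2M, the light chain of class I molecules, stood at 0.09 ± 0.26 and HLA-B at 0.52 ± 0.28 in the authors' deposited table. The checkpoint ligand CD274 (PD-L1) stood at 0.53 ± 0.43 with an adjusted p of 0.516 in the authors' deposited table, and 0 of 16 checkpoint and natural killer ligands were called there by DESeq2 (3 at an unadjusted p under 0.05). Of 16 nucleic acid sensors with values the authors' deposited table called TMEM173 (STING) alone, at 0.88 ± 0.29 with a DESeq2 adjusted p of 0.0487, beside 2.56% called higher of all PC9 genes. Centring the fold changes on their median gave 0.0505 and leaving out the 25% of genes with the lowest level gave 0.0635, each of which ends the call. TLR3, the endosomal sensor of double-stranded RNA, stood at −0.80 with an adjusted p of 0.208 in the authors' deposited table.

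Promoter letters were set beside the calls as a description. This motif (GAAA, any 2 bases, GAAA), searched on both strands with overlapping matches counted, from 250 bases before to 50 after the start, was present in 996 of 27305 promoters of the RefSeq table (3.65%) and in 251 of 9249 PC9 genes with an entry (2.71%). It was present in 15 of 207 genes called higher (7.25%) and in 4 of 153 called lower (2.61%). Among interferon-response genes, 9 of 10 called members with an entry and 8 of 16 members without a call held it, 17 of 26 together. Many known genes of this response carry the element, so the share of the list is no independent evidence. The contrast of called and uncalled members was not tested. Outside that list, 6 of 197 genes called higher held it (3.05%). OAS2, OASL and MX2 had no entry.

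Against the other lines, PC9 tested higher in interferon genes most often against SW900. Each test was a two-sided Wald z test of PC9 minus the other line, adjusted by Benjamini-Hochberg over all genes shared by the pair, and all of them share the PC9 libraries. Over all shared genes the share that tested higher in PC9 was 0.173% against NCIH1975, 0.101% against NCIH522, 16.5% against NCIH1563, 3.89% against EBC1, 1.61% against LK2, 2.14% against NCIH226, 0.517% against NCIH520, 0.823% against SKMES1 and 1.72% against SW900. Of the interferon list, PC9 tested higher than SW900, a squamous line, in 22 of 35 shared genes, with a median of −0.50 in SW900 in the authors' deposited table. It tested higher in 11 of 32 against NCIH226, 7 of 30 against EBC1, 7 of 26 against NCIH1563 and 6 of 33 against SKMES1. Against NCIH1975 it was 2 of 35, OAS2 and OASL. Against NCIH520 it was 2 of 23, against LK2 1 of 20 and against NCIH522 1 of 17. PC9 tested lower in 2 genes against EBC1 and in 2 against NCIH1563. These counts also depend on the precision of each line. The median standard error was 0.111 in SW900, 0.264 in NCIH522 and 0.342 in NCIH1975. For IFI27 a difference of 1.90 from NCIH1975 did not pass the Wald test (adjusted p 0.18). For DDX58 a difference of 1.39 from SW900 did (adjusted p 0.0086).

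OAS2 and OASL differed between PC9 and each line that lists them. OAS2 was listed in 4 other lines, with log2 fold changes of −1.37 in SW900, −0.78 in EBC1, 0.00 in NCIH1975 and 0.82 in SKMES1 in the authors' deposited table, and PC9 tested higher than each. OASL was listed in 5, from −0.63 in NCIH1975 to 1.62 in SKMES1 in the authors' deposited table, and PC9 again tested higher than each. IFI27, listed in all 9 other lines at −0.46 to 0.91 in the authors' deposited table, was higher in PC9 than in 6. By contrast the authors' deposited table gave NCIH1975 an MX2 value of 1.41, and its difference from PC9 was 0.02 ± 0.53 with an adjusted p of 0.999.

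Secreted regulators of complement and coagulation changed in both directions. Of 27 such genes with values, on a list written after the PC9 values were seen, the authors' deposited table called 6 higher and 3 lower, beside 2.56% higher and 1.91% lower of all PC9 genes; a list chosen this way is no independent evidence. C4BPB, a chain of the complement inhibitor C4b-binding protein, rose by 2.20 ± 0.50, and SERPING1, the C1 inhibitor, by 1.82 ± 0.44 in the authors' deposited table. F2RL2, a thrombin receptor, rose by 2.03 ± 0.45 and SERPINE2, an inhibitor of thrombin, by 1.38 ± 0.30 in the authors' deposited table. The central complement protein C3 fell by 1.15 ± 0.29 from a mean normalized count of 15519 in the authors' deposited table. C4B fell by 1.08 ± 0.34, its near-identical copy C4A stood at −0.96 without a call, and coagulation factor F12 fell by 1.58 ± 0.33 in the authors' deposited table. Reads of C4A and C4B may have been divided between the copies.

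Genes of the cornified envelope and squamous differentiation likewise split. Of 18 with values on a list of the same late kind, the authors' deposited table called 7 higher and 3 lower, beside 2.56% higher and 1.91% lower of all PC9 genes, and the choice of list limits it in the same way. The mucosal keratin KRT4 rose by 2.85 ± 0.38, the transcription factor GRHL3 by 1.98 ± 0.48 and the crosslinking enzyme TGM1 by 1.56 ± 0.34 in the authors' deposited table. The desmosome protein PKP1, from the squamous lineage list, rose by 1.61 ± 0.31 in the authors' deposited table. CASP14, the caspase of cornification, stood at −1.99 ± 0.29 and the envelope protein SPRR1A at −2.42 ± 0.66, both called lower as PADI3 was, in the authors' deposited table. TP63 and KRT5 stood at 0.71 and 0.10 and were not called in the authors' deposited table.

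Of 14 growth factor carriers and activin genes, again on a list written after the values were seen, 4 were called higher and 1 lower in the authors' deposited table, beside 2.56% higher and 1.91% lower of all PC9 genes. The inhibin subunits INHA and INHBA rose by 1.89 ± 0.37 and 1.25 ± 0.32 in the authors' deposited table. The follistatin-like protein FSTL1 rose by 1.38 ± 0.35 beside IGFBP3, and IGFBP2 fell, in the authors' deposited table. Of 14 mesenchymal genes, against the same shares of all genes, 3 rose, THBS1 and fibronectin (FN1, 1.25 ± 0.30) among them, and the matrix protein tenascin (TNC) fell by 1.70 ± 0.40 in the authors' deposited table. VIM stood at −0.45 and AXL at 0.41, neither called in the authors' deposited table. Of 20 epithelial junction genes the authors' deposited table called CLDN3, which fell by 1.12 ± 0.32, and CDH1 stood at 0.76 ± 0.36 without a call. Among 9 measured glandular genes, the lineage factor GATA6 rose by 1.25 ± 0.38 and CEACAM6 fell in the authors' deposited table.

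Receptor and feedback genes of EGFR signalling were not called in PC9. EGFR itself stood at 0.69 ± 0.33 with an adjusted p of 0.226 in the authors' deposited table, and MET at 0.66 ± 0.33. Of 10 receptor tyrosine kinases with values, 0 were called by DESeq2 in the authors' deposited table, with a median of 0.43. At an unadjusted p under 0.05 there were 4, all positive, beside 2365 of all 12721 PC9 genes. Of 19 genes of MAPK feedback and ETS output, 0 were called by DESeq2 and 2 had an unadjusted p under 0.05, with DUSP6 at −0.56 ± 0.33 and a median of 0.18 in the authors' deposited table. The EGFR value differed from that of most lines: 7 others list it, at −2.65 in NCIH1563, −1.87 in LK2, −1.43 in NCIH226, −1.20 in EBC1, −0.72 in SKMES1, −0.38 in SW900 and 0.02 in NCIH1975 in that table of the authors. The authors' deposited table called it lower in 6 of them, all but NCIH1975, and PC9 tested higher than 6 of the 7 lines.

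Host transcripts of small nucleolar RNAs and RNA-binding proteins had positive medians with few calls. Of 21 host transcripts of small nucleolar RNAs with values, the authors' deposited table called 4 higher and 0 lower by DESeq2, beside 2.56% called higher of all PC9 genes. At an unadjusted p under 0.05 there were 8, all positive, beside 2365 of all 12721 PC9 genes. The median of the list was 0.46 in the authors' deposited table, against 0.005 over all PC9 genes. SNHG19 rose by 1.49 ± 0.28, SNHG4 by 1.07 ± 0.32, SNHG8 by 0.90 ± 0.29 and SNHG3 by 0.90 ± 0.29 in the authors' deposited table. SNHG8 and SNHG3 lost the call when the 25% of genes with the lowest level were left out, at adjusted p of 0.0552 and 0.0591. Of 28 RNA-binding proteins with arginine-glycine repeats, the class that type I enzymes methylate, the cold-shock protein RBM3 rose by 1.25 ± 0.34 and the FET-family protein TAF15 by 1.16 ± 0.37 in the authors' deposited table. Their median was 0.44, and 23 of the 28 were positive in the authors' deposited table. TAF15 lost its call under the same filter, with an adjusted p of 0.0558, and 2 called of 28 is too near the 2.56% of all PC9 genes to be read as a result about these proteins. MALAT1, found beside paraspeckles, stood at 0.75 ± 0.30 with an adjusted p of 0.142 in the authors' deposited table.

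Metabolic lists leaned down with few calls. Of 25 hypoxia and glycolysis genes, the authors' deposited table called 3 lower and 0 higher by DESeq2, beside 1.91% lower and 2.56% higher of all PC9 genes. The 3 were CA9, ALDOC (−1.16 ± 0.30) and ENO2 (−0.88 ± 0.27), the last pair being glycolytic enzymes. The median of the list was −0.41 in the authors' deposited table. The rest were not called, among them HK2 at 0.90 in the authors' deposited table. Of 28 cholesterol and fatty acid synthesis genes, the authors' deposited table called 1 lower and 0 higher by DESeq2, with 23 negative and a median of −0.45. That 1 call is too near the 1.91% of all PC9 genes to be read as a result about the list. At an unadjusted p under 0.05 there were 10, all negative, beside 2365 of all 12721 PC9 genes. FASN, the fatty acid synthase, stood at −0.77 with an adjusted p of 0.0745 in the authors' deposited table. PPARA rose, but of the 17 genes on its list of fatty acid oxidation it alone was called in the authors' deposited table, with CPT1A, a carnitine palmitoyltransferase, at −0.43. The list of amino acid stress genes did not lean down. Of its 23 genes with values, 10 were positive and 13 negative, with a median of −0.04 in the authors' deposited table. NUPR1 alone was called, beside 2.56% higher of all PC9 genes, and rose by 1.63 ± 0.34. TRIB3, CHAC1 and DDIT3 stood at −0.75, −0.76 and −0.67 without a call in the authors' deposited table.

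Growth and housekeeping lists gave no or few calls. Of 36 mitotic genes 0 were called by DESeq2 in the authors' deposited table, with 6 at an unadjusted p under 0.05, a median of 0.15 and MKI67 at 0.99 ± 0.42. Over all 12721 PC9 genes 2365 had an unadjusted p under 0.05, and list counts at that threshold in this paragraph are not read as a result. Of 39 replication genes 0 were called by DESeq2, with 9 at an unadjusted p under 0.05 and a median of 0.23 in the authors' deposited table. Of 19 p53 targets, DDB2 and CCNG1 (−0.89 ± 0.29) were called lower in the authors' deposited table, beside 1.91% lower of all PC9 genes. CCNG1 lost its call without the 25% of genes with the lowest level (adjusted p 0.0635), and CDKN1A stood at −0.19 ± 0.28 in the authors' deposited table. The 39 ribosomal protein genes, whose transcripts are short, had a median of −0.22 with 0 called by DESeq2 and 0 at an unadjusted p under 0.05 in the authors' deposited table. The targeted enzymes were not called: PRMT1 stood at −0.08 ± 0.28, CARM1 at −0.21 ± 0.28, PRMT6 at 0.29 ± 0.29, PRMT3 at −0.44 ± 0.29 and PRMT2 at 0.03 ± 0.26 in the authors' deposited table, with 0 of 5 at an unadjusted p under 0.05. PRMT5, the main type II enzyme, stood at −0.16, and MTAP, whose loss sensitises cells to its inhibition, at 0.42 in the authors' deposited table. The RNA level of an inhibited enzyme does not measure its activity.

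**Figure D4:**
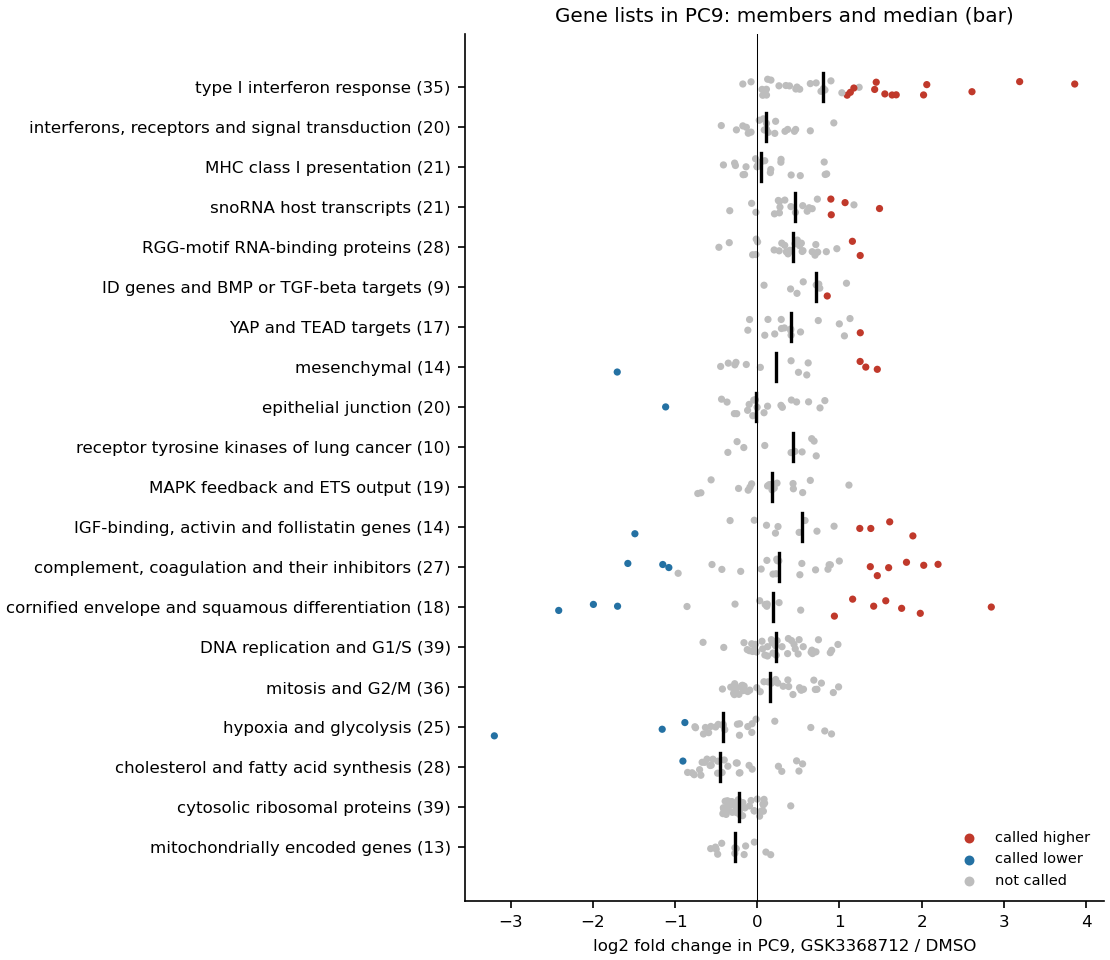
Log2 fold changes in PC9 of the measured members of 20 gene lists (number in parentheses), coloured by call, with a black bar at each median. The interferon-response list has its median at 0.81 and its 13 called members on the right, the cholesterol and the hypoxia lists have medians of −0.45 and −0.41, and most of the ribosomal list lies in a narrow band around −0.22.

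The highest correlation of PC9 was with NCIH1975, the other adenocarcinoma line of the series known for mutant EGFR. Across the 11562 genes that both list, Pearson's r of the log2 fold changes was 0.52 (genes are not independent replicates), against 0.39 with NCIH522, −0.07 with NCIH1563 and 0.27 to 0.36 with the squamous lines. Of 434 PC9 calls listed for NCIH1975, 398 (91.7%) had the same direction there, against 68.5% of all shared genes. With NCIH1563 it was 265 of 415 (63.9%), against 41.2% of all shared genes. Of 229 PC9 calls with values in all lines, 94 (41.0%) had the same direction in all 9 others, against 9.82% of all genes with values in all lines, and SHCBP1, a spindle-associated protein at 1.30 in the authors' deposited table, had the opposite direction in all 9. There were 22 PC9 calls listed in no other line.

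Tests of the difference took few genes against NCIH1975. The self-test recovered 69% of differences of 2 log2 units and 11% of differences of 1 at these errors, so smaller differences would mostly be missed. PC9 was higher in 20 genes and lower in 34 (0.294%). The largest positive ones above the median level were MDGA1, an adhesion protein at 0.15 in PC9 and −2.74 in NCIH1975 in the authors' deposited table, and the EGFR ligand TGFA, at 0.70 and −1.42. The largest negative ones were C3, at −1.15 in PC9 and 1.23 in NCIH1975 in the authors' deposited table, and the collagen COL1A1, at −0.34 and 2.03. The differences were 2.89 ± 0.44 for MDGA1, 2.12 ± 0.50 for TGFA, −2.38 ± 0.45 for C3 and −2.37 ± 0.52 for COL1A1, all past an adjusted p of 0.05.

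Against NCIH1563 the difference passed for 1867 genes higher and 1706 lower (15.1%) in PC9. HDAC4, a class IIa histone deacetylase, stood at 0.08 in PC9 and −4.87 in NCIH1563 in that table of the authors. The authors' deposited table held a negative HDAC4 value in all 9 other lines, called in 7, and PC9 tested higher than 5 of them. HDAC5 of the same class stood at 0.52 ± 0.30 without a call in PC9 and at 0.45 to 3.57 in the other lines in the authors' deposited table. NDRG1, a stress and hypoxia gene, stood at −0.22 in PC9 and 3.84 in NCIH1563 in the authors' deposited table. Against NCIH522 the difference passed for 11 genes higher and 8 lower (0.0732%), with IGFBP3 (1.83 ± 0.44) and TFPI2, an inhibitor of serine proteases (1.81 ± 0.41), the largest positive ones above the median level.

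Counted over the 9 lines, several genes tested as different between PC9 and most of the lines that list them. These tests all share the PC9 libraries, so passing against many lines is not independent repetition. Some of the genes were not called in PC9 itself. The share of all shared genes that tested lower in PC9 was 4.13% against EBC1, 1.93% against LK2, 1.12% against NCIH226, 0.321% against NCIH520, 1.08% against SKMES1 and 1.36% against SW900. PC9 tested higher than 7 of 9 lines for HPS5, than 6 of 7 for TFPI2, which the authors' deposited table put at 0.86 ± 0.29 without a call in PC9, and than 6 of 9 for PTPN14, a phosphatase that restrains YAP. PTPN14 stood at 1.13 ± 0.39 with an adjusted p of 0.0656 in the authors' deposited table. PC9 tested lower than 6 of 9 lines for ATL3, than 5 of 6 for C3, than all 4 that list it for CA9 and than 6 of 9 for CHAC1, a glutathione-degrading stress enzyme at −0.76 in PC9 and up to 3.24 in LK2 in the authors' deposited table.

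Genes shared with every line were also among the PC9 calls. TST, CYB5D2 and ATL3 fell in all 10 lines by the authors' deposited table, as did the light-sensing receptor OPN3 (−1.06 in PC9, −3.05 to −1.25 elsewhere) and the ciliary protein TMEM107 (−1.23 in PC9, −1.94 to −1.35 elsewhere). DGCR11 rose in all 10, at 3.66 in PC9 and 2.34 to 5.41 elsewhere in the authors' deposited table. LMF1 fell in PC9 and in all 6 other lines that list it in the authors' deposited table.

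When PC9 was set against the mean of the other 9 lines in limma, with 1 value per line and the single PC9 value assumed to vary like the others, 0 genes were higher and 1 was lower of 9339 (0.0107%) at an adjusted p under 0.05, and 1068 had an unadjusted p under 0.05. The gene was ENSG00000273420, at −8.62 in PC9 and −1.0 to 1.56 elsewhere in the authors' deposited table, from a mean normalized count of 34.2. The difference was −8.91 ± 0.67 with a limma adjusted p of 0.000104, an error that comes from the spread of the other lines and leaves out the gene's own PC9 standard error of 1.62 in the authors' deposited table. At so low a level the fitted fold change may rest on counts near 0, so the size of this difference is not read as a measurement. Without NCIH1563, PC9 stood above the mean of the remaining lines by 1.65 for SHCBP1 and 1.34 for SMC1A. The same difference was 1.21 for WNK1, 1.18 for TAF15 and 1.06 for CDK12. The limma errors of these differences likewise leave out the PC9 standard errors, so they are not given.

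**Figure D5:**
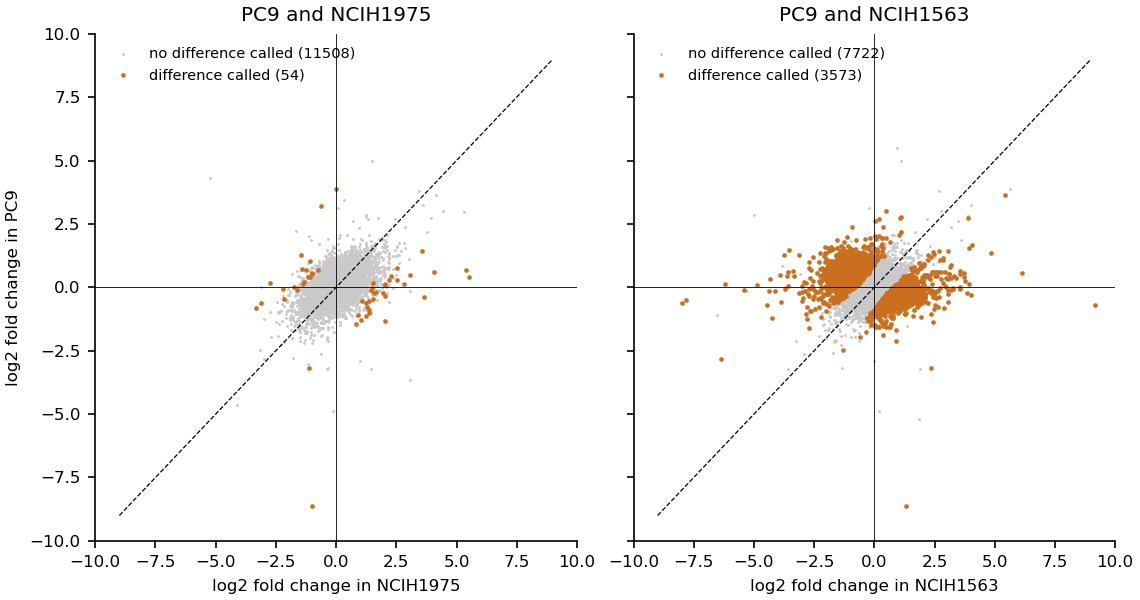
Log2 fold change (GSK3368712 over DMSO) of each shared gene in PC9 on the vertical axis against NCIH1975 (left) and NCIH1563 (right) on the horizontal axis; orange points passed the Wald test of the difference (54 and 3573 genes) and the dashed line marks equal values. Points follow the diagonal more with NCIH1975 (r = 0.52) than with NCIH1563 (r = −0.07).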

How the data were processed

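Values came from the authors' deposited table of DESeq2 comparisons, which lists per gene and line the log2 fold change and its standard error in log2 units, the Wald statistic (a score, deposited by the authors), the p-value adjusted by Benjamini-Hochberg (deposited by the authors) and the mean normalized count, a signal deposited by the authors. FastQC, Salmon 0.12.0, DESeq2 and the build GRCh38 are named per the submitters' processing notes, and the DESeq2 version is not given in the sources used here. Per the labels, libraries were stranded and each comparison kept genes above an FPKM of 1. Name order in the table's labels gave the direction (treated over vehicle), which no value of the table can check. Values and depth per library were not analysed here, so no SD, interval or counting floor is given.

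Calls used an adjusted p under 0.05 across all PC9 genes; unadjusted p came from the deposited statistic. Differences between lines were tested across all shared genes by a two-sided Wald z test with the root of the summed squared standard errors, and PC9 against 9 lines by limma 3.58.1 in R 4.3.3, both with Benjamini-Hochberg adjustment. Python 3.11.15 with pandas 2.3.3 and matplotlib 3.10.9 did the rest. Positions, gene types and overlaps came from GENCODE 29 (12715 of 12721 genes matched) and promoters from RefSeq. Tests were tested on simulated data: the Wald test recovered 69% to 88% of differences of 2 with at most 6.19% false calls, and limma 89% with 2.07%. The limma simulation drew genes independently and planted a set of shifts of 2 and 4, a setting that differs from the real data. Its recovery therefore need not hold here. IFI27, for one, stood 2.39 ± 0.44 above the mean of the other 9 lines and did not pass in limma.

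The members and lists were chosen with earlier results of these data known, and 5 of 48 lists were written after the PC9 values were seen. Named genes were the 15 largest called changes in each direction above the median level and the 5 largest below it, the 6 largest differences in each direction per test, set members of each list by smallest p, and a few genes always followed. Genes named outside this rule (hosts of intronic transcripts, genes sharing exons, uncalled list members given as examples, and counts over lines) were chosen after their values were seen. Some genes that the rule names are not reported here. Alternatives were another threshold, a filter on low levels, centring, and other limma settings.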

Additional observations from a re-analysis of the deposited data

Results flagged for a closer look

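The response of PC9 differed from that of NCIH1975, by the Wald test of the difference (PC9 minus NCIH1975, log2 units), in named genes of both signs. PC9 was higher for MDGA1 (2.89), TGFA (2.12), CGN (1.94), MYEOV (1.75), TROAP (1.69), WNT9A (1.59), OAS2 (3.86) and OASL (3.82). It was lower for C3 (−2.38), COL1A1 (−2.37), ATP6V1G2-DDX39B (−2.16), LOXL1 (−1.998), S100A4 (−1.97) and MUC1 (−1.93).

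Against NCIH1563 the same test passed for larger differences. PC9 was higher for HDAC4 (4.95), SORCS2 (4.65), LGALS9 (4.38), MUC20 (3.98), MGMT (3.79) and HERC1 (3.74). It was lower for NDRG1 (−4.06), MYEOV (−3.56), F2RL1 (−3.53), VDR (−3.33), TGM2 (−3.32) and STC2 (−3.28).

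Against NCIH522 the differences were smaller. PC9 was higher for IGFBP3 (1.83), TFPI2 (1.81), C1S (1.53), JUN (1.52) and APOBEC3B (1.38). It was lower for UNC13D (−2.17), CLDN9 (−2.17), TOR4A (−1.997) and TNXB (−1.81).

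In limma, ENSG00000273420 was lower in PC9 than the mean of the other 9 lines by a difference of −8.91, at a mean normalized count of 34.2; the error of that test leaves out the PC9 standard error of 1.62, and the size of the difference is uncertain at so low a level. The tests against single lines share the PC9 libraries, and ATP6V1G2-DDX39B shares exons with DDX39B.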

How the results depend on the processing

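No paired analysis was possible because only the authors' comparisons were used, with no values per library; leaving out single libraries was not run for the same reason. Effects below about 0.81 in PC9 were not callable at these errors. Leaving out the 25% of genes with the lowest level gave 153 higher and 124 lower in PC9, and 5 called interferon genes with a median of 0.4305. The glandular list then had a median of −0.469, against 0.004 over its 9 measured genes. The carcinoembryonic list, with a median of −0.669 over 4 measured genes, was left with CEACAM6 alone, at −1.254. The same filter gave 19 lower against NCIH1975, 22 lower against NCIH520, and 7 higher and 5 lower against NCIH522. An adjusted p under 0.01 gave 159 higher and 105 lower in PC9. For PC9 minus a line, it gave (higher, lower) 173 and 286 for EBC1, 75 and 100 for LK2, 1204 and 872 for NCIH1563, 10 and 17 for NCIH1975, 108 and 47 for NCIH226, 20 and 13 for NCIH520, 2 and 5 for NCIH522, 44 and 77 for SKMES1, and 72 and 88 for SW900. In limma, dividing each line by its SD gave 1 higher, genes in at least 6 other lines gave 3 higher and 2 lower, and the 3 other adenocarcinoma lines alone gave 0 lower. Leaving out 1 line in turn gave 0 to 15 higher (15 without NCIH1563) and 1 to 1 lower; the cause was not tested. Of 238 alternatives for 87 single genes, 230 kept the call, 8 lost it and 0 reversed.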
